A study of Mus musculus with 8 samples.

Results

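Cells swap or retune several proteins of the respiratory chain when oxygen runs short, and 7 genes of this kind were followed here: Cox4i1, Cox4i2, Ndufa4, Ndufa4l2, Lonp1, Higd1a and Higd2a. They were chosen by symbol, all 7 were found among the 53465 gene identifiers of the count table, and all 7 were among the 14369 genes with enough counts to be tested. The RNA came from mesenchymal stem cells (MSCs, the stromal progenitors of bone, fat and cartilage) of wild-type C57BL/6N mice aged 3 to 5 months. Cells sorted as negative for the blood cell markers CD45 and Ter119 and positive for Sca-1 and CD140a were divided between hypoxia (2% O2) and normoxia (21% O2) and cultured on in the same medium. Each oxygen level had 4 samples, which the study describes as biologically independent. Both groups consisted of cultured cells, with no freshly isolated cells beside them, and 21% O2 is the level of room air rather than of bone. The labels place the sort on day 12.

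Complex IV, cytochrome c oxidase, is the enzyme of the inner mitochondrial membrane that hands electrons to oxygen. Its subunit 4 is made from either of a pair of genes: Cox4i1 is active in nearly all tissues, whereas Cox4i2 is known from lung, placenta and oxygen-sensing cells. Under low oxygen the transcription factor HIF-1 is known to favour the COX4I2 form and to raise LONP1, the matrix protease that removes COX4I1. NDUFA4 is a complex IV subunit that was earlier assigned to complex I, and its relative NDUFA4L2 is a HIF-1 target that lowers complex I activity. HIGD1A, another HIF-1 target, and HIGD2A are small membrane proteins that bind complex IV and its supercomplexes.

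Total counts ranged from 12898291 to 25132141, and hypoxia replicate 1 had close to double the counts of any other sample. The sorted identity was checked first. Ly6a (Sca-1) had 4636 to 11995 counts and Pdgfra (CD140a) 1928 to 4011 counts, while Hbb-bs and Hba-a1, the globin genes of red cells, had 0 counts in all 8 samples. Ptprc (CD45) had 140 to 263 counts, and the macrophage genes Csf1r and Lyz2 had 1011 to 3180 and 4244 to 9578 counts, so transcripts of blood cells were present in every library. In bulk RNA, fewer cells of a type and less RNA per cell cannot be told apart.

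Of the 7 genes, 4 were lower in normoxia and none was higher at an adjusted p-value under 0.05 by limma-trend, a moderated linear model fitted over all tested genes on log2 CPM (counts scaled to library size). In the background, 16.5% of all tested genes were lower and 18% higher by the same rule. Cox4i2 differed most, followed by Ndufa4l2, Cox4i1 and Lonp1. In those 4 genes every normoxia sample lay below every hypoxia sample, which was true of 15.5% of all tested genes. The median log2 change of the 7 genes, normoxia minus hypoxia, was -0.25, against 0.0049 over all tested genes. When the replicate number was taken as a block, so that samples of the same number were compared with each other, Higd1a was also called and the count became 5 lower and 0 higher (background 22.7% lower and 23.3% higher).

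**Figure D1:**
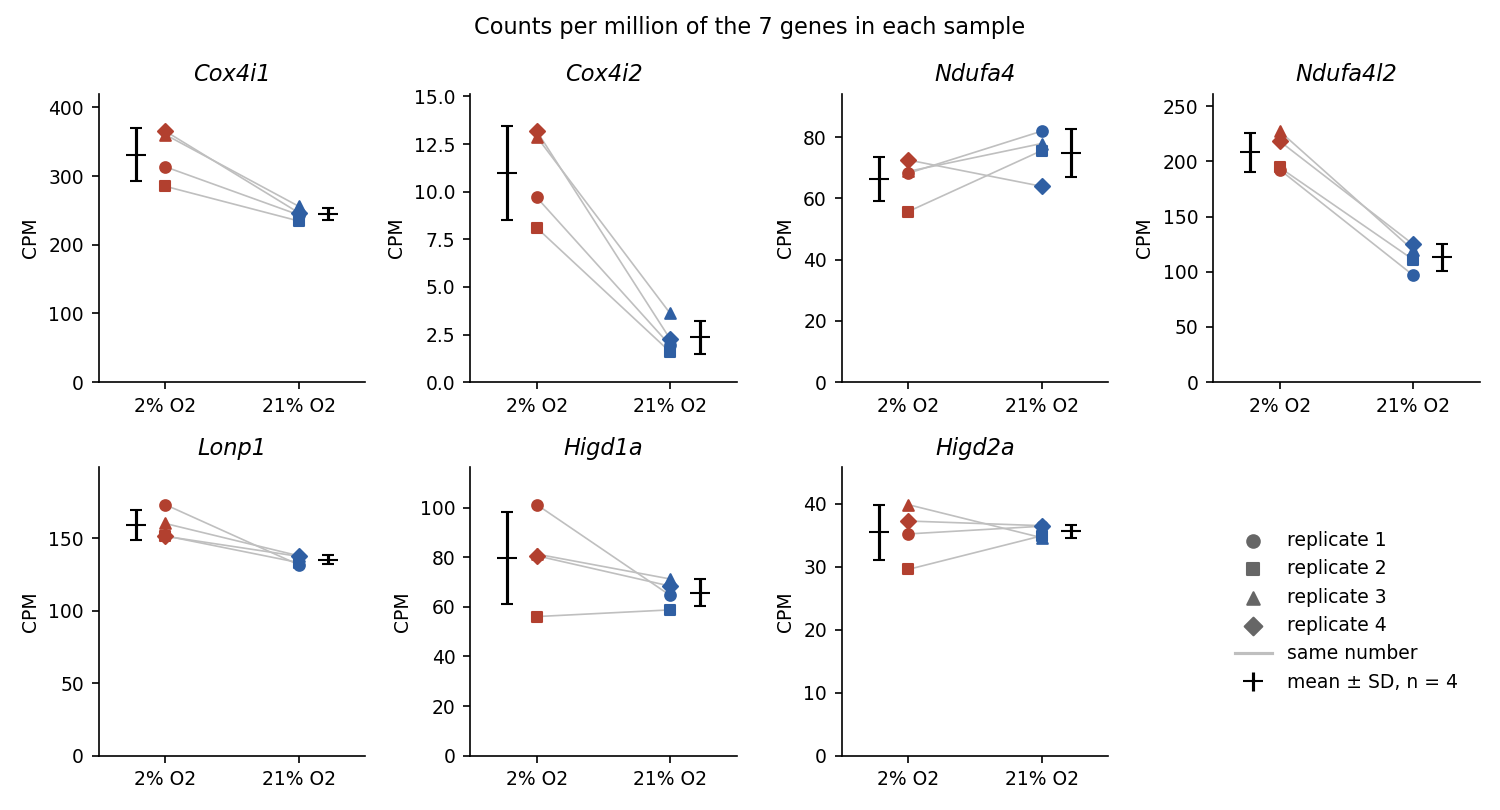
CPM (y axis) of the 7 genes at each oxygen level (x axis), 1 panel per gene; marker shapes give the replicate number, grey lines join samples of the same number, and black bars are the mean ± SD of 4 samples. Cox4i2, Ndufa4l2, Cox4i1 and Lonp1 show no overlap between hypoxia and normoxia, whereas Higd1a, Higd2a and Ndufa4 do.

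The COX4 pair was examined first. Cox4i2 (ENSMUSG00000009876, GRCm38 chr2:152754173-152765037, plus strand, 5 exon blocks) had 232, 101, 165 and 171 counts in hypoxia replicates 1 to 4 and only 26, 22, 50 and 30 counts in normoxia replicates 1 to 4. Scaled to library size, this was 9.70, 8.10, 12.9 and 13.2 CPM in hypoxia. In normoxia it was 1.93, 1.58, 3.61 and 2.26 CPM. The lowest hypoxia sample thus held more than double the highest normoxia sample. The level was 4.47-fold higher in hypoxia (95% CI 3.15 to 6.35), a log2 change of -2.16 (SE 0.23, limma-trend adjusted p = 9.85e-05). Differences within the 4 same-numbered pairs lay between -2.44 and -1.78 on the log2 scale. Among all 14369 tested genes, 7 had a larger fall, or 0.0487%. The normoxia counts were low, so that single reads weigh on these values, but all of them were far above the limit of 3 counts, which corresponds to 0.223 to 0.233 CPM in the normoxia libraries.

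Cox4i1, the ubiquitous form (ENSMUSG00000031818, GRCm38 chr8:120668222-120674207, plus strand, 6 exon blocks), was far more abundant. It had 313.5, 285, 360.3 and 365 CPM in hypoxia replicates 1 to 4. In normoxia it had 243.5, 235, 256 and 247 CPM. All normoxia values lay in a narrow band below the lowest hypoxia sample. The level was 1.34-fold higher in hypoxia (95% CI 1.19 to 1.51), a log2 change of -0.43 (SE 0.078, limma-trend adjusted p = 0.0015), lower in 4 of 4 pairs. Removing trends with GC content and transcript length from each sample, together with the block, left a log2 change of -0.15 (adjusted p = 0.0042). Without the block the corrected value was the same and just under the threshold (adjusted p = 0.048). Its exons overlap those of Emc8 on the opposite strand by 154 bases, and whether the counting used strand is not stated. Emc8 had 3045 counts in total against 33768 of Cox4i1. A stretch of 104 bases is 90.4% identical to Wasl, which had 6322 counts in total. How many reads fell in these stretches is not known.

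The 2 isoforms therefore fell by unequal amounts in normoxia. Per length of exon sequence, there was 1 Cox4i2 transcript for 16.4, 17.8, 14.2 and 14.1 Cox4i1 transcripts in hypoxia replicates 1 to 4. In normoxia there was 1 for 62.9, 73.6, 35.7 and 54.6. On the log2 scale the Cox4i2 to Cox4i1 ratio was -3.96 ± 0.17 in hypoxia, against -5.78 ± 0.45 in normoxia (SD over 4 samples). The difference was -1.82 (SE 0.24), or a 3.53-fold higher ratio in hypoxia. The groups did not overlap, and the two-sided exact permutation test over 70 assignments gave p = 0.0286, the smallest value it allows, and 0.0429 after Benjamini-Hochberg adjustment over the 3 ratios. This test does not use the pairs. The ratio was lower in normoxia in 4 of 4 pairs, and the paired exact sign-flip test gave p = 0.125, the smallest that 4 pairs allow, so that it cannot pass. Cox4i2 made up 6.06% ± 0.65 of the summed COX4 level per length in hypoxia and 1.83% ± 0.61 in normoxia (SD, n = 4). Cox4i1 was thus the main form at both oxygen levels. When the length of the longest transcript replaced the length of all exons, these shares became 3.31% and 0.98%, whereas the difference between groups on the log2 scale does not depend on length. The sum of both isoforms was 228 ± 28 RPKM (reads scaled by library size and exon length) in hypoxia and 161 ± 6.8 RPKM in normoxia, 29.2% lower (exact permutation p = 0.0286, unadjusted).

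**Figure D2:**
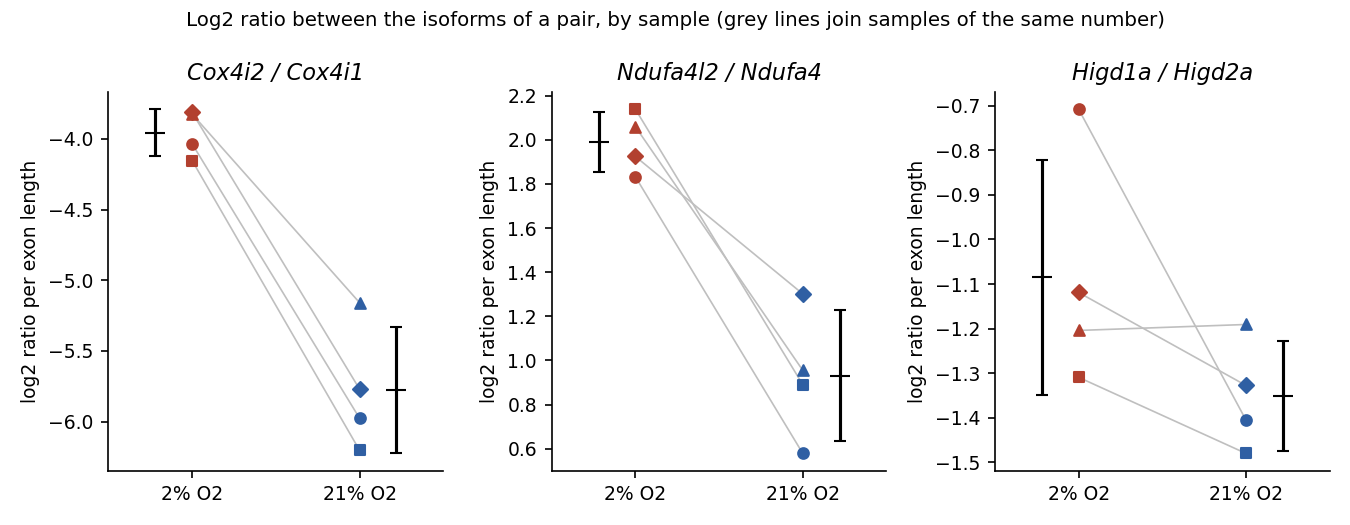
Log2 ratio of Cox4i2 to Cox4i1, Ndufa4l2 to Ndufa4 and Higd1a to Higd2a per exon length (y axis) in each sample at 2% and 21% O2 (x axis); circles, squares, triangles and diamonds are replicates 1 to 4, grey lines join equal numbers and black bars are the mean ± SD. The Cox4i2 to Cox4i1 and Ndufa4l2 to Ndufa4 ratios are lower in all 4 normoxia samples than in any hypoxia sample, while the Higd1a to Higd2a ratios overlap.

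The NDUFA4 pair behaved differently, since the HIF-1 target was its more abundant form. Ndufa4l2 (ENSMUSG00000040280, GRCm38 chr10:127514967-127517154, plus strand, 5 exon blocks) had 193, 195, 227.5 and 218 CPM in hypoxia replicates 1 to 4. In normoxia it had 97.0, 111, 120 and 125 CPM. No normoxia sample came near the hypoxia range. The level was 1.84-fold higher in hypoxia (95% CI 1.62 to 2.09), a log2 change of -0.88 (SE 0.084, limma-trend adjusted p = 5.99e-05), with pair differences between -0.99 and -0.80. Of the tested genes, 1.77% had a larger fall. With GC and length trends removed and the block, the change was -0.59 (adjusted p = 4.56e-11). Ndufa4l2 shares 32 bases of exon with Shmt2 on the opposite strand.

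Ndufa4, the complex IV subunit (ENSMUSG00000029632, GRCm38 chr6:11900292-11907497, minus strand, 3 exon blocks), had 68.2, 55.7, 68.8 and 72.5 CPM in hypoxia replicates 1 to 4. In normoxia it had 81.9, 75.6, 77.9 and 63.9 CPM. The groups overlapped, because normoxia replicate 4 lay below 3 of the hypoxia samples. Its log2 change of 0.18 (SE 0.094, 95% CI -0.030 to 0.38) did not pass the test (limma-trend adjusted p = 0.17), and 3 of 4 pairs were higher in normoxia. With these trends removed, block included, the value was 0.032 (adjusted p = 0.70). The transcript of Ndufa4 holds 40.3% GC and those of the other 6 genes 51.5% to 60.7%.

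Ndufa4l2 outnumbered Ndufa4 per exon length in every sample. In hypoxia replicates 1 to 4 the ratio was 3.56, 4.41, 4.17 and 3.80. In normoxia it was 1.49, 1.85, 1.94 and 2.46. On the log2 scale this was 1.99 ± 0.14 against 0.93 ± 0.30 (SD, n = 4 each), a difference of -1.06 (SE 0.16) with no overlap (two-sided exact permutation p = 0.0286, 0.0429 over the 3 ratios). It was lower in 4 of 4 pairs (paired exact sign-flip test, p = 0.125, again the smallest possible). Ndufa4l2 held 79.9% ± 1.5 of the summed level in hypoxia and 65.5% ± 4.6 in normoxia. The sum of the pair was 238 ± 20 RPKM and 158 ± 7.5 RPKM, 33.9% lower in normoxia (exact permutation p = 0.0286, unadjusted). From values with GC and length trends removed, the difference in the log2 ratio was -0.62 (exact permutation p = 0.0286), which moved it by over 1.5 times.

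**Figure D3:**
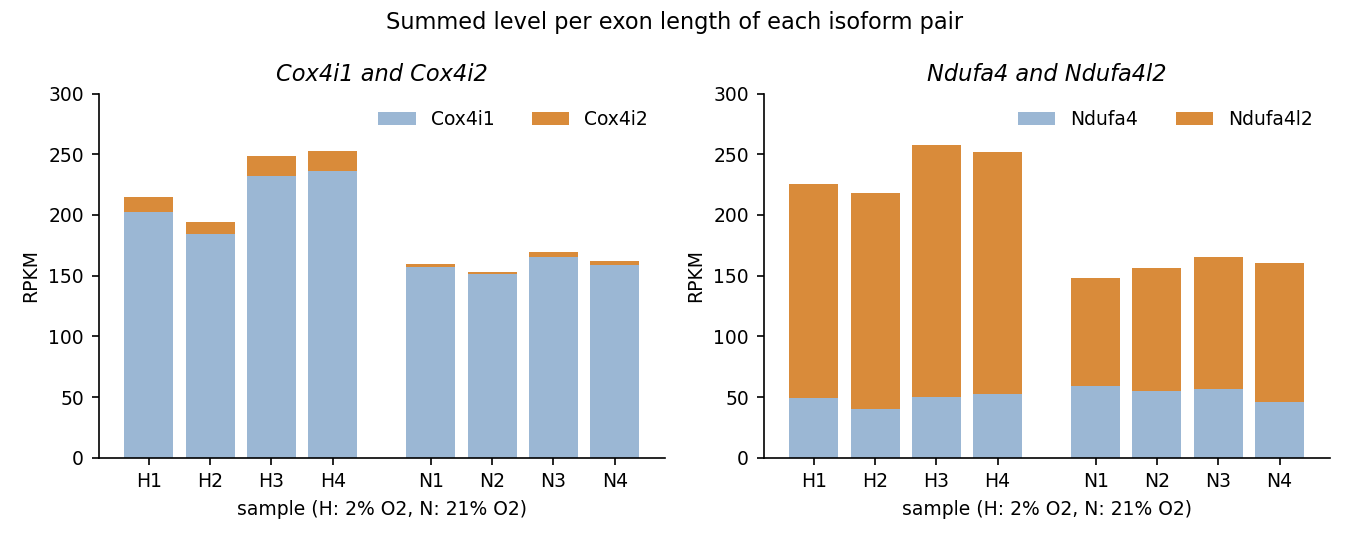
Stacked level per exon length in RPKM (y axis) of Cox4i1 with Cox4i2 and of Ndufa4 with Ndufa4l2 in each of the 8 samples (x axis; H, hypoxia; N, normoxia). Both sums are higher in all 4 hypoxia samples, with Cox4i2 a thin cap on Cox4i1 and Ndufa4l2 the larger portion of its pair.

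Lonp1 (ENSMUSG00000041168, GRCm38 chr17:56614297-56626887, minus strand, 16 exon blocks), the matrix protease of the known COX4 switch, had 173, 152, 160.2 and 151 CPM in hypoxia replicates 1 to 4. In normoxia it had 132, 133, 138 and 137.5 CPM. The ranges did not touch, but the gap between them was small. The log2 change was -0.23 (SE 0.058, limma-trend adjusted p = 0.0082), or 1.18-fold higher in hypoxia (95% CI 1.08 to 1.28), lower in 4 of 4 pairs. This call was lost when libraries were scaled by their size only (-0.15, adjusted p = 0.055) and when GC and length trends were removed, both without the block (-0.11, adjusted p = 0.17) and with it (adjusted p = 0.066).

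HIF-1 is known to bind the letters ACGTG and GCGTG. Both were searched on either strand in the 250 bases before the RefSeq start site of the 4 genes for which a promoter sequence was at hand (Ndufa4, Lonp1, Higd1a and Higd2a). Over 32851 promoters, 16.6% held ACGTG, 28.2% held GCGTG and 38.6% held at least 1 of them. Lonp1 had 6 matches, and 0.417% of promoters had 6 or more. This share was read for the promoter with the most matches of the 4, so it is no measure of chance. No promoter was at hand for Cox4i2, Ndufa4l2 and Cox4i1, which had larger falls than Lonp1. The 6 matches in Lonp1 were 4 of GCGTG on the reverse strand (CACGC) and 2 of ACGTG. The latter overlap as 1 palindrome between bases -36 and -31 from the start site. Higd2a had 3 matches of GCGTG, Higd1a 2 that overlap by 1 base, and Ndufa4 had 0. The Lonp1 window is shown because it held the most matches of the 4, with the matched letters in capitals, on the strand of the gene (RefSeq, GRCm38.p6, minus strand, chr17:56626904-56627153).
Lonp1: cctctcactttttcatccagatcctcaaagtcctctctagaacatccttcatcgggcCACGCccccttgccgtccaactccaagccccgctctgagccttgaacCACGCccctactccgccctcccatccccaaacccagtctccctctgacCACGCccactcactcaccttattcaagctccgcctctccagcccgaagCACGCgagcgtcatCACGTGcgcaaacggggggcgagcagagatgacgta
A match is a stretch of letters and was not tested for binding.

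Higd1a (ENSMUSG00000038412, GRCm38 chr9:121848563-121858362, minus strand, 5 exon blocks) had 101, 56.1, 81.3 and 80.6 CPM in hypoxia replicates 1 to 4. In normoxia it had 64.6, 58.8, 71.2 and 68.3 CPM. Hypoxia replicate 2 lay below every normoxia sample and the other hypoxia samples lay above them all. Without the block the log2 change was -0.25 (SE 0.14, 95% CI -0.56 to 0.053, limma-trend adjusted p = 0.19). With the block it passed (adjusted p = 0.0094), but with the GC and length correction alone it did not (-0.20, adjusted p = 0.315). It passed when GC and length trends were removed beside the block (adjusted p = 0.022). Pair differences were -0.65, 0.067, -0.19 and -0.24. Leaving out hypoxia replicate 2 gave -0.41 (adjusted p = 0.0068), and leaving out hypoxia replicate 1, the deepest library, gave -0.13 (adjusted p = 0.43). Similar genes, among them the near-identical processed pseudogene Gm9790, held 3.88% as many counts as Higd1a, so some of its reads may have been split or shared.

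Higd2a (ENSMUSG00000025868, GRCm38 chr13:54590207-54591158, plus strand, 2 exon blocks) had 35.2, 29.6, 39.9 and 37.3 CPM in hypoxia replicates 1 to 4. In normoxia it had 36.5, 34.9, 34.6 and 36.5 CPM, in the middle of the hypoxia range. The log2 change was 0.014 (SE 0.088, limma-trend adjusted p = 0.92), and its 95% CI of -0.18 to 0.21 leaves room for a difference of that size in either direction. After the GC and length correction it was 0.21, which passed with the block (adjusted p = 0.0092) and without it (adjusted p = 0.030). The Higd1a to Higd2a log2 ratio per exon length was -1.09 ± 0.26 in hypoxia and -1.35 ± 0.12 in normoxia (SD, n = 4), a difference of -0.27 that did not pass (two-sided exact permutation p = 0.0857, also 0.0857 over the 3 ratios).

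**Figure D4:**
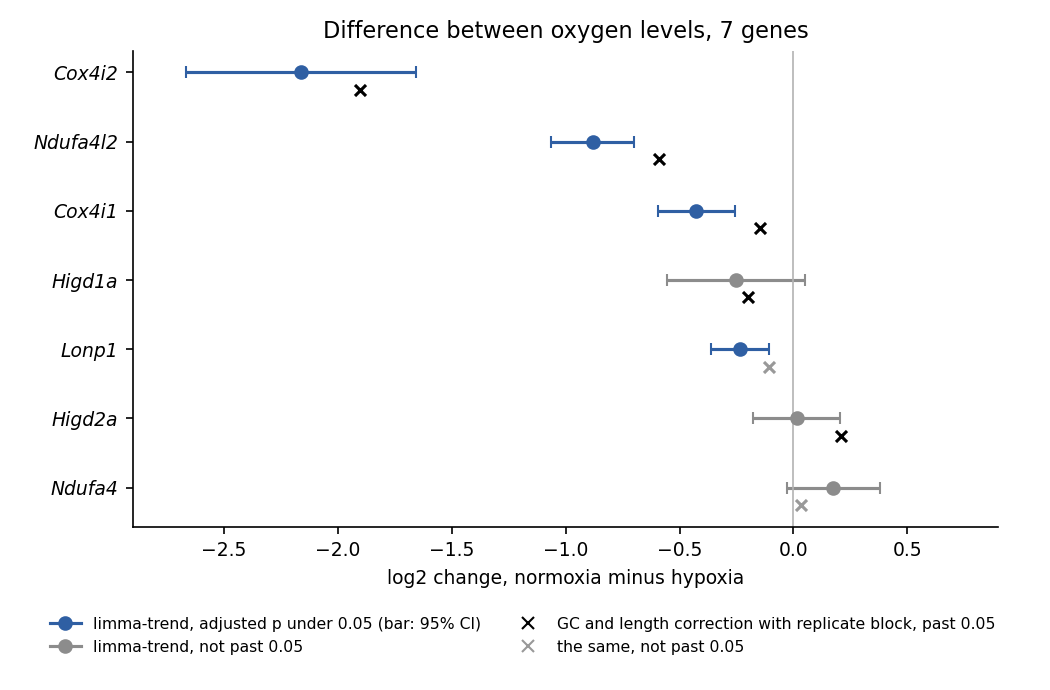
Log2 change, normoxia minus hypoxia (x axis), of the 7 genes (y axis); circles with bars are limma-trend estimates with 95% CI, blue where the adjusted p-value was under 0.05, and crosses are estimates after GC and length correction with the replicate block, black where past the same threshold. The estimate is lowest for Cox4i2 at -2.16 and highest for Ndufa4 at 0.18, and under correction and block together Lonp1 is no longer called while Higd1a and Higd2a are; Higd1a is called with the block alone and not with the correction alone.

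By mean level per exon length in hypoxia, the order was Cox4i1 (214 RPKM), Ndufa4l2 (190), Higd2a (54.8), Ndufa4 (48.0), Lonp1 (36.4), Higd1a (26.2) and Cox4i2 (13.9). The ranges of Cox4i1 and Ndufa4l2 overlapped, as did those of Higd2a and Ndufa4, so these neighbours were not separated by the spread of samples. In normoxia the order was the same, with 158, 103, 55.0, 54.2, 30.9, 21.6 and 2.98 RPKM. There only Higd2a and Ndufa4 overlapped. With the longest transcript as length, Cox4i1 was about double these values (433 RPKM in hypoxia and 320 in normoxia), and Ndufa4 stood before Higd2a in normoxia.

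Across the 8 samples, Cox4i2 and Ndufa4l2 had a Pearson r of 0.97 on the log2 CPM scale, Cox4i1 and Cox4i2 of 0.96, and Cox4i1 and Ndufa4l2 of 0.93. Ndufa4 and Ndufa4l2 had an r of -0.55. These values are descriptive, since all genes share the 8 libraries and any pair that differs between the groups correlates. Among 10895 candidates with a mean log2 CPM of at least 2, the genes most like Ndufa4l2 were Dhrs3 (r = 0.996), Kdm6b (0.993), Scamp2 (0.991), Ncstn (0.990) and Cmklr1 (0.990). Those most like Cox4i2 were Aph1a (0.991), Gm11808 (0.989), Gm15191 (0.986), Trpm4 (0.986) and Edem1 (0.986).

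The genes around these 7 were then described by list, with limma-trend calls and medians only. Of 4 close paralogues, Lonp2, the Lon protease of peroxisomes, was higher in normoxia (57.0 ± 2.3 CPM in hypoxia, 76.6 ± 1.9 in normoxia, log2 change 0.43, SE 0.056, adjusted p = 0.00025), opposite in direction to Lonp1. AA467197, a small relative of Ndufa4, had 12 to 45 counts and was not called (-0.18, adjusted p = 0.63). Higd1b and Higd1c had 0 counts in all samples.

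Of 14 tested other subunits of complex IV, 4 were lower in normoxia and 0 higher (background 16.5% and 18%), with a median of -0.23. Cox7a2l differed most (-0.47, adjusted p = 0.00083), followed by the structural subunits Cox5b (-0.28), Cox7c (-0.26) and Cox8a (-0.23). With the block 7 were lower and 0 higher (background 22.7% and 23.3%). With the GC and length correction added, 7 were lower and 1 higher, Cox6a1 (0.15, adjusted p = 0.0085), and Cox8a turned to 0.078 (adjusted p = 0.16; 0.23 without the block). Without hypoxia replicate 3 or without normoxia replicate 3, 2 were called. Cox7c lost its call in 6 of the 8 fits that left out 1 sample and Cox8a in 3. Scaled by library size only, Cox5b, Cox7c and Cox8a were not called (adjusted p = 0.083, 0.17 and 0.13). Mt-Co1, the catalytic subunit encoded in mitochondrial DNA, had 2470 ± 172 CPM in hypoxia and 2370 ± 137 in normoxia (adjusted p = 0.61). Mt-Co2 and mt-Co3 had at most 15 counts in a sample and were not among the tested genes. Mt-Co1 had 28748 to 61674 counts. Whether mapping or counting set these values was not tested, so the low counts are not read here as low expression.

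Of 24 tested complex IV assembly factors, 5 were lower and 1 higher in normoxia (background 16.5% and 18%), with a median of -0.031. Those lower were Surf1 (-0.44), an early assembly factor mutated in Leigh syndrome, Smim20 (-0.42) and Cmc1 (-0.40), which act on the nascent catalytic subunit, Coa5 (-0.39) and Cmc2 (-0.39). Lrpprc, which stabilizes mitochondrial messenger RNA, was higher (0.26, adjusted p = 0.013; 0.20 and 0.054 without normoxia replicate 1). Surf1 fell from 32.8 ± 4.2 to 24.0 ± 2.4 CPM and Coa5 from 137 ± 5.9 to 104 ± 1.4 CPM. With the GC and length correction alone, Surf1 (-0.29, adjusted p = 0.057) and Lrpprc (0.17, adjusted p = 0.092) were not called, and with the block added both were.

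Of 16 tested mitochondrial proteases other than Lonp1, 6 were higher, 0 lower and 10 not called (background 18% higher and 16.5% lower), with a median of 0.080. With the block 6 were higher and 1 lower, Mipep (-0.28, adjusted p = 0.031), against a background of 23.3% higher and 22.7% lower. With the GC and length correction added 5 were higher and 2 lower, Mipep and Immp1l. Yme1l1, the protease that faces the intermembrane space, rose from 86.5 ± 6.0 CPM in hypoxia to 141 ± 4.0 CPM in normoxia (log2 change 0.71, SE 0.061, adjusted p = 3.83e-05). Also higher were Pmpca (0.39), a subunit of the presequence peptidase, Xpnpep3 (0.36), Clpx (0.35), the unfoldase of the other matrix protease, and the inner-membrane proteases Afg3l2 (0.21) and Spg7 (0.20). With the GC and length correction alone, the change was 0.46 for Yme1l1 and 0.21 for Clpx, both still called, and 0.24 for Xpnpep3, which was not (adjusted p = 0.097). Xpnpep3 lost its call in 4 of the 8 fits that left out 1 sample. Without hypoxia replicate 4 or without normoxia replicate 3, 3 proteases were called, and without normoxia replicate 1, 4 were higher and 1 lower. Of 6 chaperones (same background), Hspe1 was lower (-0.22, adjusted p = 0.048) and Hspa9 higher (0.19, adjusted p = 0.040), both close to the threshold. Across the fits that left out 1 sample, 0 to 3 chaperones were called, with 0 called without hypoxia replicate 3, hypoxia replicate 4, normoxia replicate 2, normoxia replicate 3 or normoxia replicate 4 and 1 called without hypoxia replicate 2 or normoxia replicate 1.

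Among 8 known regulators, 4 were lower and 1 higher in normoxia (background 16.5% and 18%), with a median of -0.19. Rbpj, which acts at the oxygen-responsive element of Cox4i2, was lower (324 ± 1.1 CPM in hypoxia, 229 ± 12 in normoxia, log2 change -0.50, adjusted p = 9.85e-05). The other 2 factors known from that element, Cxxc5 (-0.23, adjusted p = 0.010) and Chchd2 (-0.20, adjusted p = 0.027), were lower by less. Neither was called with scaling by library size only (adjusted p = 0.079 and 0.20). With the GC and length correction Cxxc5 was at -0.088 and not called (adjusted p = 0.26; 0.21 with the block). Chchd2 lost its call in 5 of the 8 fits that left out 1 sample. Egln1, the prolyl hydroxylase that marks HIF proteins for decay, was lower (139 ± 15 against 99.6 ± 4.2 CPM, -0.47, adjusted p = 0.00067). Hif1a, whose protein level is set mainly by that decay, had more mRNA in normoxia (289 ± 27 against 403 ± 26 CPM, 0.48, adjusted p = 0.0005). Its change was 0.26 after the GC and length correction (adjusted p = 0.012). Vhl (-0.17, adjusted p = 0.069), Epas1 (-0.011, 0.96) and Arnt (0.0020, 0.98) were not called, and Vhl passed without normoxia replicate 2 (-0.21, adjusted p = 0.045).

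**Figure D5:**
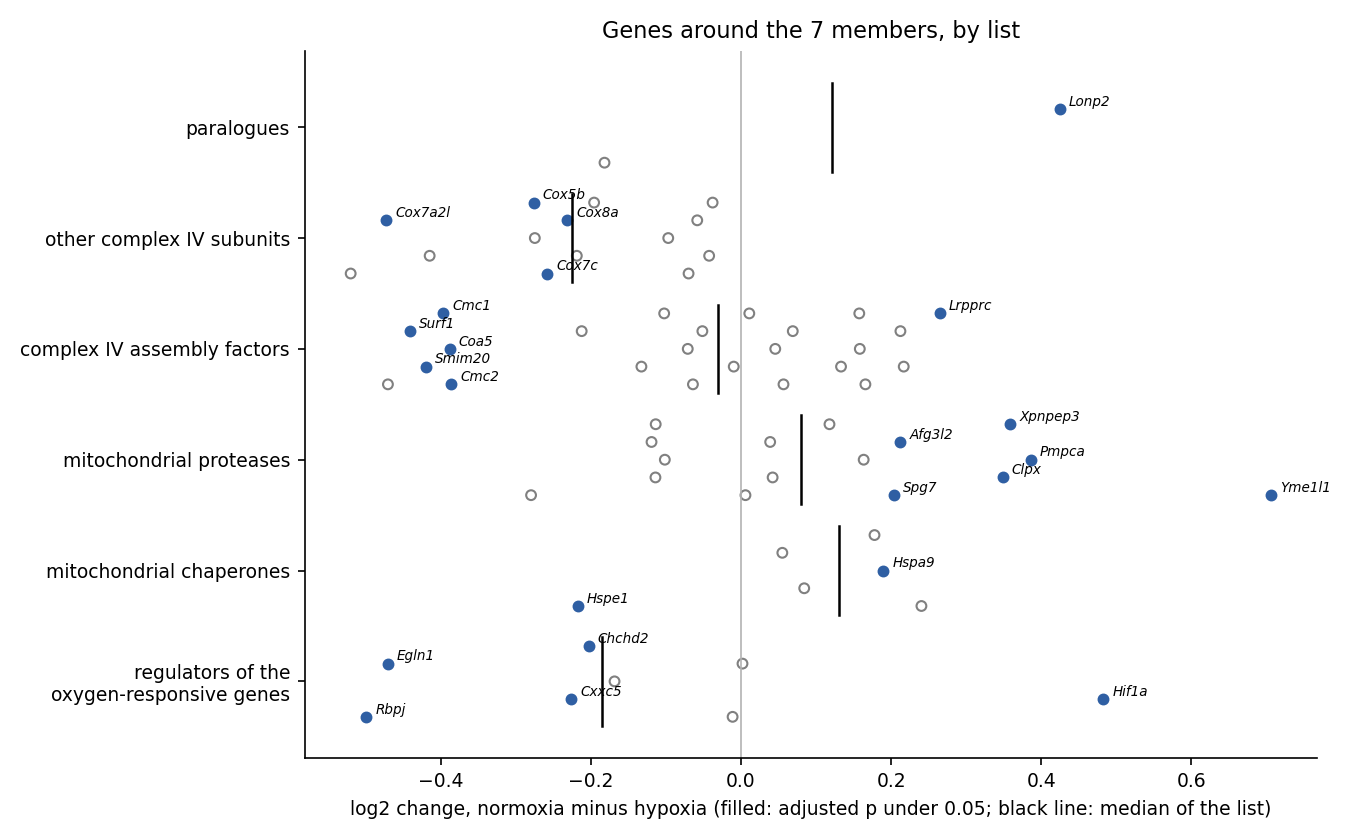
Log2 change, normoxia minus hypoxia (x axis), of the tested genes of 6 lists (y axis; vertical spread within a list is for legibility only); filled points passed an adjusted p-value of 0.05 and are named, open points did not, and black lines are list medians. The 4 called complex IV subunits all lie below 0 and the 6 called proteases all lie above 0. Of all tested genes, 16.5% were called lower and 18% higher by the same fit.

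Cox4i2 and Ndufa4l2 are also used as markers of pericytes, the mural cells of capillaries, so pericyte transcripts were counted beside them. Of 12 pericyte markers 8 were tested and 1 was called, against 16.5% lower and 18% higher over all tested genes. This was Des, lower in normoxia (-0.74, adjusted p = 0.033, 6 to 33 counts). Its call was lost in 5 of the 8 fits that left out 1 sample. With the block 5 were lower and 1 higher, and after GC and length trends were removed under the block 0 were lower and 1 higher. The background with the block alone was 22.7% lower and 23.3% higher, for this list and for the MSC and blood cell markers below. The summed level of the list was 824 to 953 CPM in hypoxia and 766 to 844 CPM in normoxia, most of it Pdgfrb, which MSCs express as well. Of the 12 markers, Higd1b had 0 counts in all samples, and Kcnj8 and Vtn had at most 2 and 1. Others were well detected, among them Cspg4 (1515 to 4515 counts), Anpep (860 to 1820), Notch3 (425 to 722) and Mcam (37 to 102). The 5 lower with the block were Cspg4 (-0.24, adjusted p = 0.0012), Notch3 (-0.23, 0.027), Anpep (-0.16, 0.024), Pdgfrb (-0.15, 0.012) and Des (0.030). The 1 higher with the block was Rgs5 (adjusted p = 0.0041). Rgs5 had 14 to 54 counts with a log2 change of 0.71 (adjusted p = 0.056). The MSC markers summed to 2269 to 2719 CPM in hypoxia and 2786 to 3242 CPM in normoxia, with 1 of 8 lower (Eng, -0.27) and 3 higher (Cd44, 0.72; Nt5e, 0.59; Itgb1, 0.44). Itgb1 alone had 1070 ± 93 CPM in hypoxia and 1450 ± 71 in normoxia, and Cd44 had 250 ± 73 and 411 ± 115. The sort markers Ly6a (-0.14, adjusted p = 0.26) and Pdgfra (0.24, adjusted p = 0.075) were not called. Thy1 (-0.41) and Vcam1 (0.022) were not called either. With the block 3 were lower, Ly6a among them (adjusted p = 0.021), and 4 higher, Pdgfra among them (adjusted p = 0.00087). Itgb1 was at 0.28 after the GC and length correction. Eng lost its call in 6 of the 8 fits that left out 1 sample. Sums of blood cell markers overlapped between hypoxia (474.5 to 933.5 CPM) and normoxia (586.5 to 1090 CPM). Of 7 tested, Lyz2 was called higher (0.56, adjusted p = 0.022), but not without normoxia replicate 3 (adjusted p = 0.067) or normoxia replicate 4 (0.056). Csf1r (-0.59, adjusted p = 0.10) was called lower without hypoxia replicate 1 (-0.80, adjusted p = 0.013) or without normoxia replicate 3 (-0.81, adjusted p = 0.027). With the block 3 blood cell markers were lower in normoxia, the macrophage and myeloid genes Csf1r (adjusted p = 6.71e-09), Itgam (-0.46, adjusted p = 0.0011) and Cd68 (-0.28, adjusted p = 0.0028), and 1 was higher, Lyz2. Of 5 endothelial markers 2 were tested and 0 called by limma-trend, and the list summed to 1.28 to 2.65 CPM over all samples. The part of these markers in the differences of the 7 genes was not tested.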

How the data were processed

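RNA-seq libraries of 4 hypoxia and 4 normoxia samples of MSCs were analysed from the table of raw counts per Ensembl gene that the authors deposited. The authors mapped single-end reads to mm10 with STAR and counted them with featureCounts, both within zUMIs. Strand, intron and multimapping settings are not given in the sources used here. Groups are as labelled.

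Genes were kept by filterByExpr with a minimum count of 5 in edgeR 4.0.16, leaving 14369 genes with 99.93% of counts. Following the study's methods, log2 CPM (TMM factors, prior count 3) was compared by limma-trend (limma 3.58.1, R 4.3.3) with Benjamini-Hochberg adjustment over all tested genes at 0.05. TMM was chosen here. Log2 changes are normoxia minus hypoxia and understate changes of low genes. P-values measure the spread between these samples. The numbers 1 to 4 are shared by both groups, and 1 sorted population was divided between them in the study's description. The deviations of same-numbered samples from their group means correlated across genes in all 4 pairs (0.47, 0.28, 0.25 and 0.17). Samples of unlike number were not compared in this way, so these values cannot show that equal numbers are more alike. The numbers were taken as pairing the samples, which the labels do not state, and the replicate number entered a second fit as a block. P-values with the block rest on that assumption.

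CPM used the counts of tested genes and TMM factors, and RPKM divided CPM by the exon union in GENCODE M21 (GRCm38), which gave a symbol to 53274 identifiers. Isoform ratios used counts plus 0.5 per exon length and a two-sided exact permutation test (scipy 1.17.1). The GC and length correction removed natural splines with 5 degrees of freedom from each sample, together with any true change that follows them. DESeq2 1.42.0, the edgeR quasi-likelihood test, limma-voom, other scalings, filters and prior counts, and leaving out each sample were alternatives.

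The 7 genes and all lists were chosen with earlier results of these data known. Named are the 7 genes, up to 4 called genes per list and direction, any paralogue, regulator or marker, and the 5 genes most correlated with Ndufa4l2 and with Cox4i2. Cmc2, Afg3l2, Spg7, Cox6a1, Mipep and Immp1l were named after their values were seen, as was mt-Co1 with the other mitochondrially encoded subunits.

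The limit of detection was set at 3 counts, or 0.119 to 0.233 CPM, for counting error only, since amplified reads are not independent molecules. Tested on simulated counts for the normoxia against hypoxia comparison, limma-trend recovered 83% of 200 genes changed by 1 on the log2 scale among 14183, and 3.49% of its calls were unchanged genes. The simulated samples were drawn independently, without the pairing or the GC and length trends of the data. Far more genes were called in the data, and of the 7 genes only Cox4i2 changed by more than 1. These rates therefore need not hold for the data. Promoters came from RefSeq tables on GRCm38.p6, which matched 4 of the 7 genes.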

Additional observations from a re-analysis of the deposited data

Results flagged for a closer look

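In 22 sets of 4 samples (the total counts, the log2 CPM of the 7 genes and the 3 log2 ratios in each group), the sample farthest from its neighbours was compared with the spread of its set, and 1 set stood out. Hypoxia replicate 1 had 25132141 counts in total, whereas replicates 2 to 4 of its group had between 12929564 and 13219647. The gap was 0.976 of the whole range, above the 95% critical value of Dixon's test for 4 samples. Chance alone marks about 1 set in 20. No value of the 7 genes and no ratio was marked. Without this library the log2 changes were -2.20 for Cox4i2, -0.92 for Ndufa4l2, -0.45 for Cox4i1 and -0.19 for Lonp1, all still called, and -0.13 for Higd1a, which was not called with it either.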

How the results depend on the processing

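Cox4i2, Ndufa4l2 and Cox4i1 kept their direction and their call in all 19 alternatives, with log2 changes of -2.38 to -1.90, -0.94 to -0.59 and -0.50 to -0.15, and Ndufa4 stayed uncalled (0.032 to 0.26). With the GC and length correction alone, Cox4i1 was only just called (limma-trend adjusted p = 0.048). Lonp1 lost its call with scaling by library size only (-0.15) and with the GC and length correction, without and with the replicate block (-0.11 each). Higd1a gained one with the replicate block (-0.25), with block and correction together (-0.20) and without hypoxia replicate 2, in a range of -0.41 to -0.13 over the fits that left out 1 sample. Higd2a gained one with the GC and length correction (0.21, without and with the replicate block), turned sign with DESeq2 (-0.0047) and ranged from -0.070 to 0.072 when 1 sample was left out. The replicate block gave the same log2 ratios of -1.82 for Cox4i2 to Cox4i1 and -1.06 for Ndufa4l2 to Ndufa4, but its exact sign-flip permutation test over 4 pairs cannot go below p = 0.125. Leaving out 1 sample gave ratio differences of -2.02 to -1.68, -1.18 to -0.94 and -0.34 to -0.14 for the COX4, NDUFA4 and HIGD pairs, with no test.

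Genes called numbered 4970 (2592 higher, 2378 lower), and 3838 to 5423 when 1 sample was left out (2019 to 2853 higher, 1819 to 2570 lower). With scaling by library size only, 3611 were higher and 1575 lower, and the median of all genes moved by less than 0.1. The replicate block gave 7 called genes among the other complex IV subunits, 4 among the chaperones, 6 among pericyte, 7 among MSC and 4 among blood cell markers, and with the GC and length correction it gave 8 complex IV subunits, 7 MSC and 4 blood cell markers. Over all 14369 tested genes, 6610 were called with the block and 6214 with block and correction. When 1 sample was left out, which was added after seeing the data, as was the correction of the ratios and the longest-transcript length, called genes numbered 2 to 6 of the complex IV subunits, 3 to 6 of the proteases, 0 to 3 of the chaperones, 0 to 2 of the pericyte, 3 to 4 of the MSC and 0 to 3 of the blood cell markers. Of 27 called genes named from the lists, 17 kept their call in all 8 such fits. Cox8a turned to 0.078 with the GC and length correction, without and with the replicate block. Epas1 and Arnt stayed near 0 on either side. Epas1 had 0.035 with limma-voom, 0.076 with library size only, 0.030 with the GC and length correction and -0.17 to 0.12 when 1 sample was left out. Arnt had -0.0090 with DESeq2, -0.0081 with its size factors, -0.074 with the correction and -0.031 to 0.039 when 1 sample was left out. The causes were not tested. Counts of 22 to 50 limit the precision of Cox4i2 in normoxia.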
